A study of Mus musculus with 18 samples.

Results

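The comparison described here asked what loss of the aryl hydrocarbon receptor (AhR, gene Ahr) added in natural killer (NK) cells that already lacked Hif1a. It took the log2 change between cells with and without Ncr1-iCre from mice with loxP-flanked (flox) Hif1a and Ahr, and subtracted the same change in mice with flox Hif1a alone. The rule used 12 of the 18 libraries of the series, and 16747 of 56953 gene identifiers had enough counts to be tested. The value is called the difference of effects below: it is above 0 where a gene rose more, or fell less, when Ahr was deleted together with Hif1a than when Hif1a was deleted alone. An effect of Cre that is equal in both lines cancels in it.

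AhR is a transcription factor that is activated by small aromatic ligands, among them products of tryptophan breakdown, and it binds DNA as a pair with Arnt. HIF-1, the factor that drives the response to low oxygen, uses the same partner, with Hif1a as its oxygen-regulated subunit. Genes switched on by AhR include its own repressor Ahrr and detoxifying enzymes such as Nqo1 and the Cyp1 family. In NK cells and related innate lymphoid cells AhR is known for its part in tissue residency and in the expression of Kit and Asb2.

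All cells were NK cells from mouse spleen that had been kept for 7 days at 1% oxygen with 1700 U/ml IL-2. The 4 groups of 3 biological replicates entered the difference of effects. Hif1a flox cells (Hif1a fl/fl) and Hif1a KO cells (Ncr1 iCre Hif1a fl/fl) form the Hif1a line. Hif1a Ahr flox cells (Hif1a fl/fl, Ahr fl/fl) and Hif1a Ahr KO cells (Ncr1 iCre with both flox genes) form the Hif1a Ahr line. Ahr flox cells (Ahr fl/fl) and Ahr KO cells (Ncr1 iCre Ahr fl/fl) were used beside them, because they share no library with the difference of effects. Cre was driven by Ncr1, the gene of the NK receptor NKp46, no group had Cre without a flox gene, and the labels do not say whether animals were pooled or shared between libraries. The p-values therefore measure the spread between these replicates.

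Total counts of the 12 libraries ran from 54731932 to 55732940, and 24103 to 25669 genes had counts above 0. The summed level of 12 NK markers, among them Ncr1, was 23700 to 25900 CPM (counts scaled to the library total) in Hif1a KO cells. It was 27000 to 27500 CPM in Hif1a Ahr KO cells and 28500 to 33900 CPM in both flox groups. Most of this sum came from the granzymes Gzmb and Gzma. In the Hif1a line 4 of the 12 markers were called higher with Cre and 6 lower, beside 17.6% and 17.8% of all genes. Ncr1 went from 118 to 238 CPM, Klrk1 from 243 to 432 and Klrd1 from 345 to 490. Gzmb went from 14000 to 10700 CPM, Gzma from 9220 to 8000 and Prf1 from 3460 to 744. A lower sum therefore does not show fewer NK cells. The gene-level counts showed no called fall of Hif1a or Ahr between flox and Cre-bearing cells. Hif1a stood at 64.9, 59.5 and 56.5 CPM in the Hif1a flox, 182, 147 and 210.5 in the Hif1a KO, 58.2, 58.7 and 62.4 in the Hif1a Ahr flox and 185, 220.0 and 170.4 in the Hif1a Ahr KO libraries, so it rose in both lines, and its difference of effects was 0.10 ± 0.15 (SE, adjusted p = 0.72). Ahr stood at 27.7, 39.3 and 27.7 CPM in the Hif1a flox, 42.8, 56 and 35.2 in the Hif1a KO, 78, 52.2 and 68.8 in the Hif1a Ahr flox and 57, 41.4 and 68.2 in the Hif1a Ahr KO libraries, with a difference of effects of -0.76 ± 0.29 (SE, adjusted p = 0.113), which DESeq2 called (-0.75, adjusted p = 0.0333). An edgeR fit with the replicate number as a block within each line also called Ahr lower (-0.76, adjusted p = 0.000517), so this call depends on the model. The 3 Hif1a Ahr flox values of Ahr lay above all 3 Hif1a flox values (log2 difference 1.07, adjusted p = 0.203), and the Hif1a Ahr KO values overlapped those of their own flox group. Transcript counts summed over a gene cannot resolve the loss of single exons. Arnt, the shared partner, had a lower difference of effects, -0.40 ± 0.10 (SE, adjusted p = 0.0149): its 3 Hif1a KO values, 65.5, 68.6 and 62.5 CPM, lay above all 9 others.

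A gene was called at an adjusted p under 0.05 in edgeR's quasi-likelihood test, with Benjamini-Hochberg adjustment over all genes tested. The difference of effects was called higher for 757 genes (4.52% of those tested) and lower for 856 (5.11%), and it was at least 2-fold for 231 and 251 genes in each direction. Its median over all genes was -0.0025. Of these calls, 280 higher and 351 lower ones held in each of the 18 fits that left out 1 library. Called genes named below are among them unless stated otherwise. In 6 of the 18 fits the library left out was from the Ahr line. Such a library enters the difference of effects only through the shared spread, the filter on counts and the scaling. A count out of 18 can therefore make a call look firmer than the other 12 fits alone would. The counts themselves fell to 341 higher and 413 lower genes without Hif1a KO replicate 2, the lowest of the 18 fits. Counts of called genes in the lists below are to be read beside the 4.52% of all genes called higher and 5.11% called lower. In bulk RNA, fewer cells of a type and less RNA per cell cannot be told apart.

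The AhR battery, a list of 16 genes that AhR is known to regulate, had the lowest median difference of effects of the 24 pathway lists. That median was -1.65. The list's median was -1.01 for Hif1a Ahr KO against Hif1a KO and 0.56 for Hif1a Ahr flox against Hif1a flox. Between the flox groups 0 of its genes were called, but their levels enter the difference of effects as well. Of the 13 tested genes of the battery 5 had a lower difference of effects (Ahrr, Asb2, Hic1, Nqo1 and Selenbp1) and 1 a higher one (Aldh1a3). Promoters of 4 of these genes, 1 for each gene, from 250 bases before to 50 bases after a RefSeq start site, are shown in full. These genes are the called members with the smallest adjusted p. The promoters are from RefSeq on GRCm38.p6, read 5′ to 3′ along the gene. Capitals mark the core of the AhR response element, GCGTG, or its reverse complement, CACGC. Those of Selenbp1 (chr3:94932833-94933132, plus strand), Hic1 (chr11:75170206-75170505, minus strand), Asb2 (chr12:103355952-103356251, minus strand) and Nqo1 (chr8:107403156-107403455, minus strand) read as follows.
Selenbp1: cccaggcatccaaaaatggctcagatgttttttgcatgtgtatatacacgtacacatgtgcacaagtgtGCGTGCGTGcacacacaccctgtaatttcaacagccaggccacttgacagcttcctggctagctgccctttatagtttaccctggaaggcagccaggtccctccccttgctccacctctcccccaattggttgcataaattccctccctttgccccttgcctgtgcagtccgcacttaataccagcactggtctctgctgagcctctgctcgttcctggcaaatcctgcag
Hic1: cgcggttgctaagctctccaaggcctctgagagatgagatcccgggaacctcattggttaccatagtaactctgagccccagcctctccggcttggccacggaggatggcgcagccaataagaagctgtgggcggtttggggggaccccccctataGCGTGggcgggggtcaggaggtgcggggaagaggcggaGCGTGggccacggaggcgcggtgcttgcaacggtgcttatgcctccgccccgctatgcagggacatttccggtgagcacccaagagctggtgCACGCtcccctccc
Asb2: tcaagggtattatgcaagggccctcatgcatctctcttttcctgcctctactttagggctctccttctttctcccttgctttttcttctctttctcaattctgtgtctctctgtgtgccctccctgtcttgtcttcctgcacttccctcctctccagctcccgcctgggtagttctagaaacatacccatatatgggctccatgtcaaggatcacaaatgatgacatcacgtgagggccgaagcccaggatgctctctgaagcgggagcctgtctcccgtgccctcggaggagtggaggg
Nqo1: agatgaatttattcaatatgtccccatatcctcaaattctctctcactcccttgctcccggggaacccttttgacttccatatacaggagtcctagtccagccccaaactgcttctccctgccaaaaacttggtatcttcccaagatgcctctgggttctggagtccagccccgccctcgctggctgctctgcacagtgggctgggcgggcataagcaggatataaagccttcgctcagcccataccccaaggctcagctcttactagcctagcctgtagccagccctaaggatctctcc
The Selenbp1 promoter held 2 matches that overlap by 1 base, this Hic1 promoter held 3, and those of Asb2 and Nqo1 held none. Another Hic1 promoter (chr11:75168103-75168402) held 1 match and another Asb2 promoter (chr12:103338341-103338640) held 0, and neither is shown. Over all 32851 promoters of this length, 32.4% held at least 1 match, and 19.6% held the core of the hypoxia response element, ACGTG, or its reverse complement, CACGT. Among genes with a promoter in the table, 50.3% of the 642 called lower, 57.2% of the 570 called higher and 53.3% of all 11029 tested held GCGTG in at least 1 promoter. The corresponding shares for ACGTG were 24.5%, 34.7% and 28.4%. A match in this window is a description of the letters and not of binding.

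Ahrr, which encodes the repressor that competes with AhR, stood at 27.6, 44.6 and 29.1 CPM in the Hif1a flox, 42.6, 59.7 and 32 in the Hif1a KO, 47.6, 30.6 and 70.8 in the Hif1a Ahr flox and 11.2, 3.53 and 10.1 in the Hif1a Ahr KO libraries. All 3 Hif1a Ahr KO values lay below the other 9, while Hif1a KO and Hif1a flox overlapped, and the difference of effects was -2.99 ± 0.62 (SE, adjusted p = 0.0123). Asb2, a substrate-binding part of a ubiquitin ligase, was the most abundant of the called members. It stood at 159.6, 173 and 166 CPM in the Hif1a flox, 163, 174 and 117 in the Hif1a KO, 253, 193 and 312 in the Hif1a Ahr flox and 47.3, 17.7 and 44.8 in the Hif1a Ahr KO libraries. Again only the Hif1a Ahr KO libraries were low, and the difference of effects was -2.65 ± 0.43 (SE, adjusted p = 0.00342). Hic1, a transcriptional repressor, stood at 26.4, 45 and 31.8 CPM in the Hif1a flox, 70.4, 96.7 and 59.2 in the Hif1a KO, 55.9, 33 and 68 in the Hif1a Ahr flox and 13.5, 5.83 and 14.6 in the Hif1a Ahr KO libraries. Its 3 Hif1a KO values lay above all Hif1a flox values, although that change was not called (log2 1.13, adjusted p = 0.0502). Its Hif1a Ahr KO values lay below all others, which gave the largest called fall among genes named for their size, -3.34 ± 0.60 (SE, adjusted p = 0.00674).

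Nqo1 and Selenbp1 had other patterns. Nqo1, a quinone reductase, stood at 0.492, 1.01 and 0.888 CPM in the Hif1a flox, 5.24, 5.82 and 6.04 in the Hif1a KO, 1.17, 0.619 and 0.728 in the Hif1a Ahr flox and 1.18, 1.1 and 1.21 in the Hif1a Ahr KO libraries. It rose in Hif1a KO cells (log2 change 2.83, adjusted p = 9.45e-08), and in Hif1a Ahr KO cells its change was 0.47 (adjusted p = 0.163), for a difference of effects of -2.36 ± 0.34 (SE, adjusted p = 0.000924). Selenbp1, which encodes a selenium-binding protein with methanethiol oxidase activity, stood at 50.2, 52.5 and 61.5 CPM in the Hif1a flox, 19.6, 25.2 and 17.3 in the Hif1a KO, 62, 56.8 and 47.6 in the Hif1a Ahr flox and 6.9, 3.69 and 5.37 in the Hif1a Ahr KO libraries. It fell in both lines without overlap, by 1.40 on the log2 scale in the Hif1a line and by 3.38 in the Hif1a Ahr line (difference of effects -1.98 ± 0.26 SE, adjusted p = 0.000734).

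The other members of the battery were not called or less firm. Tiparp, an ADP-ribosyltransferase that limits AhR activity, stood at 66.1, 95.8 and 68.7 CPM in the Hif1a flox, 59.3, 92.9 and 46.6 in the Hif1a KO, 106, 86 and 166 in the Hif1a Ahr flox and 35.6, 20.1 and 42.7 in the Hif1a Ahr KO libraries: its Hif1a Ahr KO values were the lowest, and the difference of effects of -1.65 ± 0.52 (SE, adjusted p = 0.0647) was not called. Scin, an actin-severing protein, fell in both lines, and its difference of effects was -1.01 ± 0.42 (SE, adjusted p = 0.143). Cyp1a1 and Cyp1b1, the classical xenobiotic targets, had a mean of 0.215 and 0.679 CPM over the 12 libraries, and their difference of effects was -3.94 ± 1.74 (SE, adjusted p = 0.17) and -1.57 ± 1.40 (SE, adjusted p = 0.534). Aldh1a3, a retinal dehydrogenase, had 1.09, 1.23 and 1.57 CPM in Hif1a KO and 1.46 to 2.16 CPM in the other 3 groups. Its call (0.88 ± 0.25 SE, adjusted p = 0.0326) held in 10 of the 18 fits that left out 1 library (highest adjusted p = 0.0881, without Hif1a Ahr KO replicate 2). Ugt1a6a and Ugt1a6b share most of their sequence, so the split of their counts is uncertain, and neither was called.

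**Figure D1:**
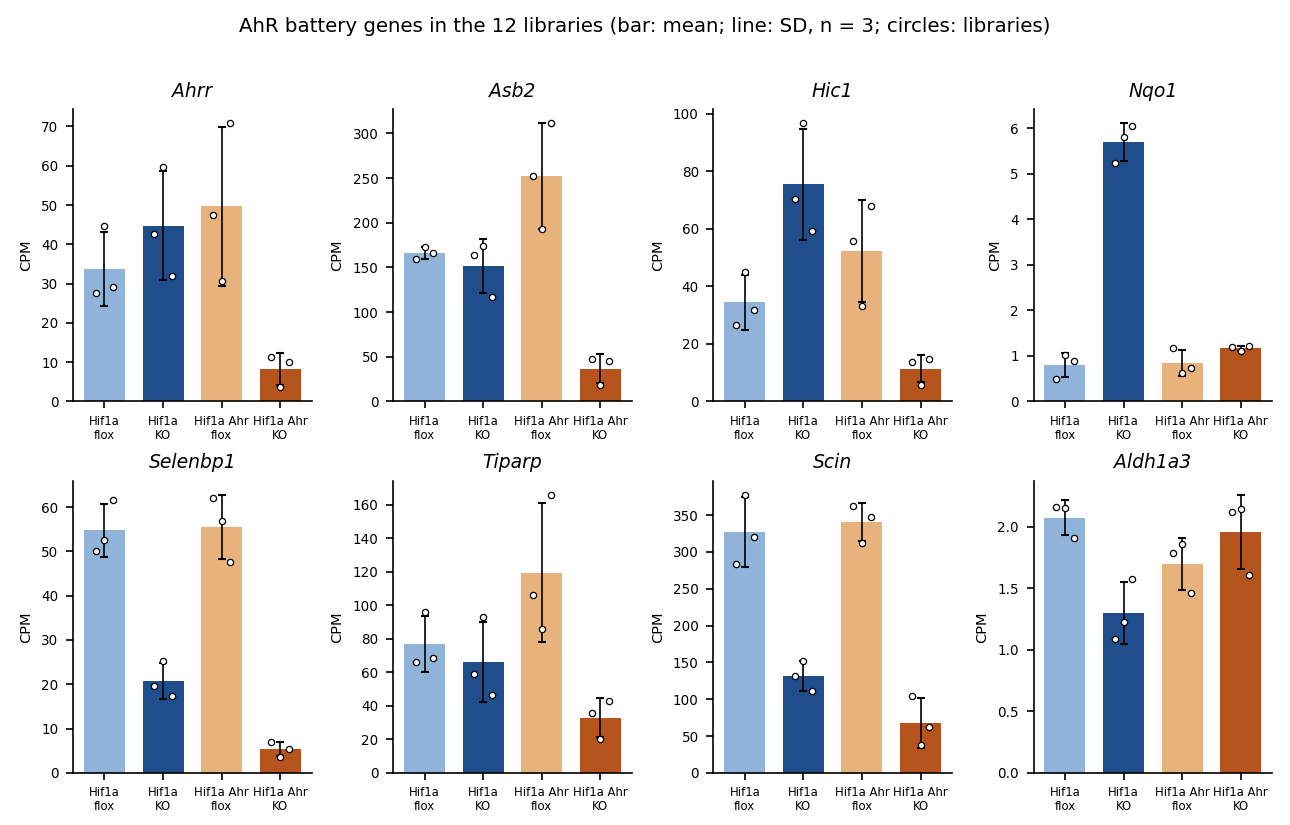
CPM (TMM-scaled, linear axis from 0) of 8 genes of the AhR battery in the 4 groups of the difference of effects. Bars are means, lines SD (n = 3) and circles single libraries. Ahrr, Asb2, Hic1, Selenbp1 and Tiparp are lowest in the 3 Hif1a Ahr KO libraries, while Nqo1 is high in Hif1a KO libraries only.

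The difference of effects can be read on either side of the deletion. On the side of the Cre-bearing cells, Hif1a Ahr KO against Hif1a KO, 1541 genes were higher (9.2% of those tested) and 1488 lower (8.89%). On the side of the flox cells, Hif1a Ahr flox against Hif1a flox, 4 genes were called (0.0239%), and 907 had an unadjusted p under 0.05. These 4, chosen after their values were seen, were Nbea, Ifi208, Wdfy1 and Pctp, all lower in Hif1a Ahr flox, and with edgeR on all libraries the difference of effects was called for none of them. For Pctp it was called with DESeq2 (0.59, adjusted p = 0.0226), with a filter at a mean of 1 CPM (adjusted p = 0.0474) and when any 1 of the 3 Hif1a Ahr flox libraries or replicate 2 of Hif1a flox was left out (adjusted p = 0.0233 to 0.0495). For Wdfy1 it was called without Hif1a Ahr KO replicate 3 (0.61, adjusted p = 0.0132). Nbea, a scaffold protein, stood at 16.6, 14.8 and 19 CPM in the Hif1a flox, 9.77, 15.9 and 16.4 in the Hif1a KO, 1.53, 1.22 and 1 in the Hif1a Ahr flox and 1.31, 1.15 and 0.997 in the Hif1a Ahr KO libraries; the low values were those of both groups of the Hif1a Ahr line. For 723 of the 757 higher and 839 of the 856 lower genes the side of the Cre-bearing cells was the larger in size, and for 699 and 787 genes it was itself called in the same direction. That side is an arithmetic part of the difference of effects, from the same libraries, so these counts are partly set by the choice of called genes. The share over all genes was not counted.

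Hif1a deletion alone raised 2948 genes (17.6%) and lowered 2975 (17.8%), and the joint deletion raised 2482 (14.8%) and lowered 2763 (16.5%). Set beside these calls, the genes with a lower difference of effects fell into a few classes. The largest held 425 of 856 genes that rose in the Hif1a line and were not called in the Hif1a Ahr line, and 262 were not called in the Hif1a line and fell in the Hif1a Ahr line. A further 71 rose in the first and fell in the second. Of the 757 genes with a higher difference of effects, 318 fell in the Hif1a line and were not called in the Hif1a Ahr line, and 236 were not called in the first and rose in the second. In 53 the direction turned from a fall to a rise. Each class is a set of calls, and a gene called in 1 line and not in the other was also called for the difference itself.

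**Figure D2:**
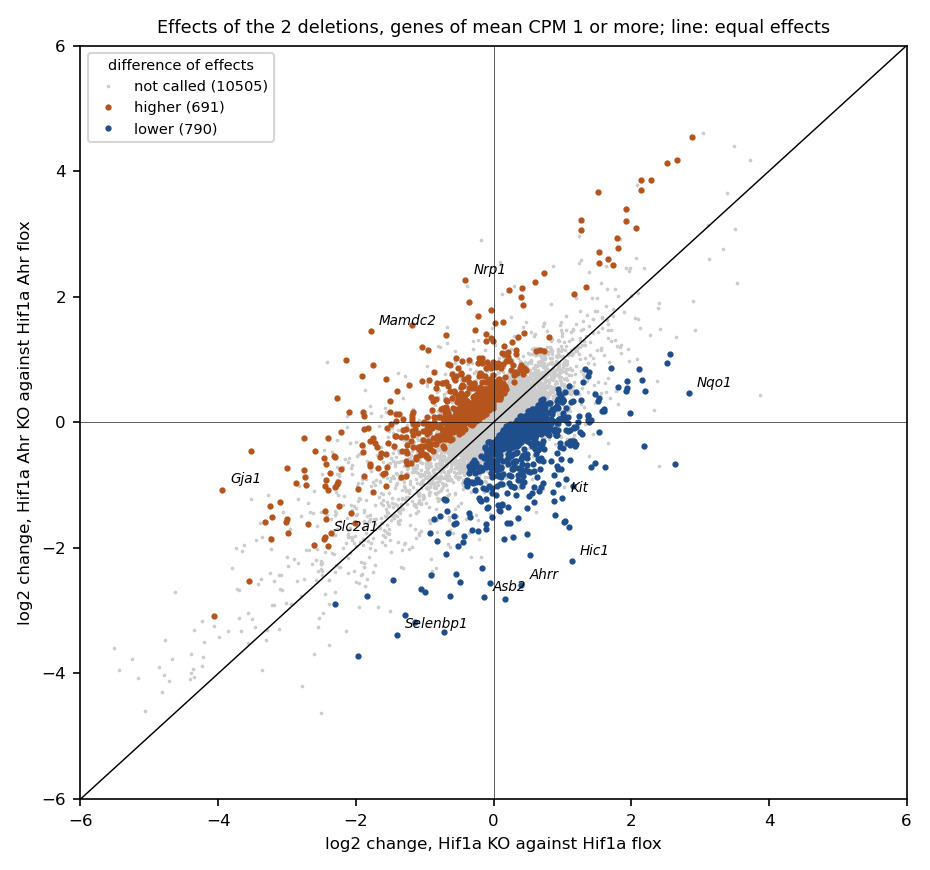
Log2 change in Hif1a Ahr KO against Hif1a Ahr flox (vertical) over log2 change in Hif1a KO against Hif1a flox (horizontal) for 11986 genes that averaged 1 CPM or more. Orange points (691) have a higher and blue points (790) a lower difference of effects, which is the vertical distance from the line of equal effects. Nqo1 and Kit lie on the right below the line, Gja1 on the left above it, and 2 genes fall outside the axes.

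By the naming rule, the largest falls after Hic1 included Cd160, Cd200r1, Npffr1, St6galnac2 and Paqr5. For the largest falls and rises this rule took only genes whose changes did not overlap between the lines. A lack of overlap between Hif1a KO and Hif1a Ahr KO values in these genes is therefore largely set by the choice. Cd160, a receptor of NK cells that binds the TNF receptor family member HVEM, stood at 72.8, 108 and 72.8 CPM in the Hif1a flox, 123, 156 and 86 in the Hif1a KO, 136, 84.6 and 147 in the Hif1a Ahr flox and 40.8, 11.3 and 32.6 in the Hif1a Ahr KO libraries. Its Hif1a Ahr KO values lay below all others, the other 3 groups overlapped, and the difference of effects was -2.64 ± 0.55 (SE, adjusted p = 0.0121). Cd200r1, an inhibitory receptor for CD200, had 24.3, 32.3 and 21.3 CPM in Hif1a KO and 8.91, 2.76 and 9.15 CPM in Hif1a Ahr KO libraries, again with no overlap, and a difference of effects of -2.26 ± 0.47 (SE, adjusted p = 0.0121). Its close relative Cd200r2 moved the same way (-2.36 ± 0.67 SE, adjusted p = 0.0425), in 6 of the 18 fits that left out 1 library (highest adjusted p = 0.107, without Hif1a Ahr flox replicate 1), and reads may be split between the pair.

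Npffr1, a neuropeptide receptor, had 0.538, 0.108 and 0.437 CPM in Hif1a Ahr KO and 1.02 to 3.75 CPM elsewhere (difference of effects -2.98 ± 0.60 SE, adjusted p = 0.0073). St6galnac2, a sialyltransferase, had 1.96, 2.11 and 0.981 CPM in Hif1a KO and 0.745, 0.16 and 0.622 in Hif1a Ahr KO libraries (-2.61 ± 0.55 SE, adjusted p = 0.00882). Both are low genes, and the lack of overlap between their Cre-bearing groups is largely set by the naming rule. Paqr5, a membrane progestin receptor, stood at 1.82, 2.56 and 2.67 CPM in the Hif1a flox, 7.23, 8.94 and 5.41 in the Hif1a KO, 3.47, 2.85 and 4.79 in the Hif1a Ahr flox and 2.08, 1.44 and 3.23 in the Hif1a Ahr KO libraries. It rose in the Hif1a line (log2 change 1.61) and not in the Hif1a Ahr line (-0.72, adjusted p = 0.0715), with a difference of effects of -2.33 ± 0.41 (SE, adjusted p = 0.00325). Capn3, a calcium-dependent protease, had the second largest fall of the genes named for their size, which average 1 CPM or more, -3.29 ± 0.80 (SE, adjusted p = 0.0235), called in 12 of the 18 fits that left out 1 library (highest adjusted p = 0.0645, without Hif1a KO replicate 2). Ggt5, a gamma-glutamyl transferase, had -2.62 ± 0.65 (SE, adjusted p = 0.0217) and was called in 13 of the 18 fits that left out 1 library (highest adjusted p = 0.0645, without Hif1a Ahr flox replicate 1).

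Of the largest rises, Mamdc2, Gpr25, Gja1, Nrp1, Lancl3, Kcnip3 and Ramp1 held in all fits. Nrp1, a co-receptor for semaphorins and VEGF, stood at 4.98, 4.71 and 3.82 CPM in the Hif1a flox, 3.55, 2.52 and 4.07 in the Hif1a KO, 2.41, 2.33 and 2.33 in the Hif1a Ahr flox and 11, 9.58 and 13.4 in the Hif1a Ahr KO libraries. All 3 Hif1a Ahr KO values lay above the other 9, and the difference of effects was 2.68 ± 0.28 (SE, adjusted p = 0.000141). Kcnip3, a calcium-binding protein that modulates potassium channels, had the same pattern, with 12.2, 13.9 and 14.2 CPM in Hif1a Ahr KO and 1.91 to 5.15 CPM in the other groups (2.27 ± 0.39 SE, adjusted p = 0.00321). In these 2 genes the change in the Hif1a line was not called (log2 -0.41 and -0.36).

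Gja1, Ramp1 and Lancl3 fell in the Hif1a line. Gja1, the gap junction protein connexin 43, stood at 13.8, 11.1 and 10.1 CPM in the Hif1a flox, 1.12, 0.331 and 0.831 in the Hif1a KO, 6.44, 10.5 and 4.93 in the Hif1a Ahr flox and 3.52, 3.37 and 3.52 in the Hif1a Ahr KO libraries. It fell in both lines without overlap, by 3.94 on the log2 scale in the Hif1a line and by 1.07 in the Hif1a Ahr line, and the difference of effects was 2.87 ± 0.54 (SE, adjusted p = 0.00706). Ramp1, a subunit of the receptor for calcitonin gene-related peptide, had 2.48, 2.13 and 2.68 CPM in Hif1a flox and 0.571, 0.443 and 0.689 CPM in Hif1a KO libraries. Its Hif1a Ahr flox and KO values overlapped, at 0.952 to 1.88 CPM, and the difference of effects was 2.26 ± 0.40 (SE, adjusted p = 0.00309). Lancl3 had a fall in the Hif1a line (log2 change -1.92), a rise in the Hif1a Ahr line (0.74, adjusted p = 0.0325) and a difference of 2.66 ± 0.37 (SE, adjusted p = 0.000685).

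Mamdc2 stood at 6.51, 4.46 and 7.16 CPM in the Hif1a flox, 1.7, 0.887 and 2.69 in the Hif1a KO, 2.75, 4.22 and 1.48 in the Hif1a Ahr flox and 6.28, 10.1 and 6.8 in the Hif1a Ahr KO libraries, so it fell in the Hif1a line and rose in the Hif1a Ahr line, each without overlap, and it had the largest rise of the genes named for their size, 3.24 ± 0.61 (SE, adjusted p = 0.00702). Gpr25, a G protein-coupled receptor, had 0.346, 0.205 and 0.725 CPM in Hif1a KO and 1.7, 3.05 and 2.33 CPM in Hif1a Ahr KO libraries (3.13 ± 0.66 SE, adjusted p = 0.00969). Fut7 and Tspan32 were each called in 17 of the 18 fits. Fut7, a fucosyltransferase, had a difference of 2.67 ± 0.60 (SE, adjusted p = 0.0173), and an adjusted p of 0.0511 without Hif1a Ahr flox replicate 1. Tspan32, a tetraspanin, had 2.26 ± 0.53 (SE, adjusted p = 0.0183), and an adjusted p of 0.0574 without Hif1a KO replicate 2. The other 3 of the 12 largest rises were less firm. Kcnk10, a potassium channel (2.74 ± 0.72 SE, adjusted p = 0.0324), was called in 11 of the 18 fits that left out 1 library (highest adjusted p = 0.0881, without Hif1a Ahr KO replicate 2). Wdr95 (2.50 ± 0.72 SE, adjusted p = 0.0427) was called in 5 of the 18 fits that left out 1 library (highest adjusted p = 0.118, without Hif1a KO replicate 2). Rgs8, a regulator of G protein signalling (2.27 ± 0.66 SE, adjusted p = 0.0479), was called in 4 of the 18 fits that left out 1 library (highest adjusted p = 0.119, without Hif1a Ahr KO replicate 2).

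Genes tied to the ILC1 state and tissue residency were lower in 5 of 6 calls. Of 18 tested genes, 5 had a lower and 1 a higher difference of effects, and the median was -0.52. Kit, the receptor of stem cell factor, stood at 194, 235 and 218 CPM in the Hif1a flox, 416, 490.4 and 381 in the Hif1a KO, 323, 233 and 326 in the Hif1a Ahr flox and 138, 96.5 and 147 in the Hif1a Ahr KO libraries. It rose with Hif1a deletion alone, without overlap (log2 change 0.99, adjusted p = 0.00224), the joint deletion lowered it (-1.21, adjusted p = 0.000646), and the difference of effects was -2.21 ± 0.30 (SE, adjusted p = 0.00121). Rora, a nuclear receptor needed for innate lymphoid cells, had the same order, at 13.4, 19.6 and 11.7 CPM in the Hif1a flox, 25.6, 33.3 and 23.4 in the Hif1a KO, 35.9, 17.9 and 22.3 in the Hif1a Ahr flox and 10.2, 7.87 and 13.9 in the Hif1a Ahr KO libraries (difference of effects -2.13 ± 0.37 SE, adjusted p = 0.00475). With Cd200r1 above, these 3 held in all fits, and without Hif1a flox replicate 1, Hif1a flox replicate 3, Hif1a KO replicate 2, Hif1a Ahr flox replicate 1 or Hif1a Ahr KO replicate 2 the list had 3 lower genes. Cd69, an early activation and retention marker, had -1.75 ± 0.43 (SE, adjusted p = 0.025) and was called in 12 of the 18 fits that left out 1 library (highest adjusted p = 0.0691, without Hif1a Ahr KO replicate 2). The IL-21 receptor gene Il21r was called in 6 of the 18 fits that left out 1 library (highest adjusted p = 0.119, without Hif1a Ahr KO replicate 2), at -0.37. The 1 higher gene, the lipid phosphatase Inpp4b, had 1.13 ± 0.27 (SE, adjusted p = 0.0195) and an adjusted p of 0.0518 without Hif1a Ahr flox replicate 1. Itga1, Itgae, Cxcr6 and Zfp683, which mark resident cells, were not called.

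Among 32 NK receptors and their adaptors 8 were lower and 1 was higher, with a median of -0.22. Cd96, a receptor for the adhesion molecule CD155, stood at 198, 214 and 193 CPM in the Hif1a flox, 304, 337 and 262 in the Hif1a KO, 237, 205 and 238 in the Hif1a Ahr flox and 154, 124 and 152 in the Hif1a Ahr KO libraries. It rose in Hif1a KO and fell in Hif1a Ahr KO cells, each without overlap, and the difference of effects was -1.24 ± 0.14 (SE, adjusted p = 0.00019). The lectin-like receptors Klri1 (-1.11 ± 0.17 SE, adjusted p = 0.00112) and Klri2 (-0.64 ± 0.10 SE, adjusted p = 0.00124) were lower too. Fcgr3, the CD16 receptor for antibody, had 72.4, 56.5 and 61.3 CPM in Hif1a Ahr KO and 100.2 to 138 CPM in the other 3 groups, and a difference of -0.67 ± 0.12 (SE, adjusted p = 0.00381). Its signalling partner Fcer1g was the 1 higher gene (0.56 ± 0.13 SE, adjusted p = 0.0135). It fell in the Hif1a line (log2 change -0.76) and was not called in the Hif1a Ahr line. The lower calls of Klrb1a, Klrc2, Klrc3 and Klra8 held in 7 to 16 of the 18 fits, with the highest adjusted p between 0.0556 and 0.131, and these belong to families of near-identical genes. Without Hif1a flox replicate 1, Hif1a KO replicate 1, Hif1a KO replicate 2, Hif1a Ahr flox replicate 3 or Hif1a Ahr KO replicate 2 the list had 5 lower genes.

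Among 25 transcription factors of NK and innate lymphoid cells 4 were lower and 2 higher. Eomes, which keeps the conventional NK cell identity, stood at 340.1, 287 and 338 CPM in the Hif1a flox, 228, 166 and 244 in the Hif1a KO, 228, 332 and 248 in the Hif1a Ahr flox and 415, 475 and 493 in the Hif1a Ahr KO libraries. It fell in Hif1a KO cells and rose in Hif1a Ahr KO cells, each without overlap, and the difference of effects was 1.37 ± 0.22 (SE, adjusted p = 0.00214). Maf, a bZIP factor, was lower together with Rora: it had 17.4, 17.1 and 14.8 CPM in Hif1a KO and 7.86, 7 and 9.14 CPM in Hif1a Ahr KO libraries (-1.20 ± 0.20 SE, adjusted p = 0.00202). Bach2 (1.00), Ets1 (-0.45) and Ikzf3 (-0.52) were called in 13, 14 and 5 of the 18 fits, with the highest adjusted p of 0.0604, 0.0677 and 0.125, each without Hif1a KO replicate 2. Tbx21, the T-bet gene, was not called (-0.32 ± 0.15 SE, adjusted p = 0.178).

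**Figure D3:**
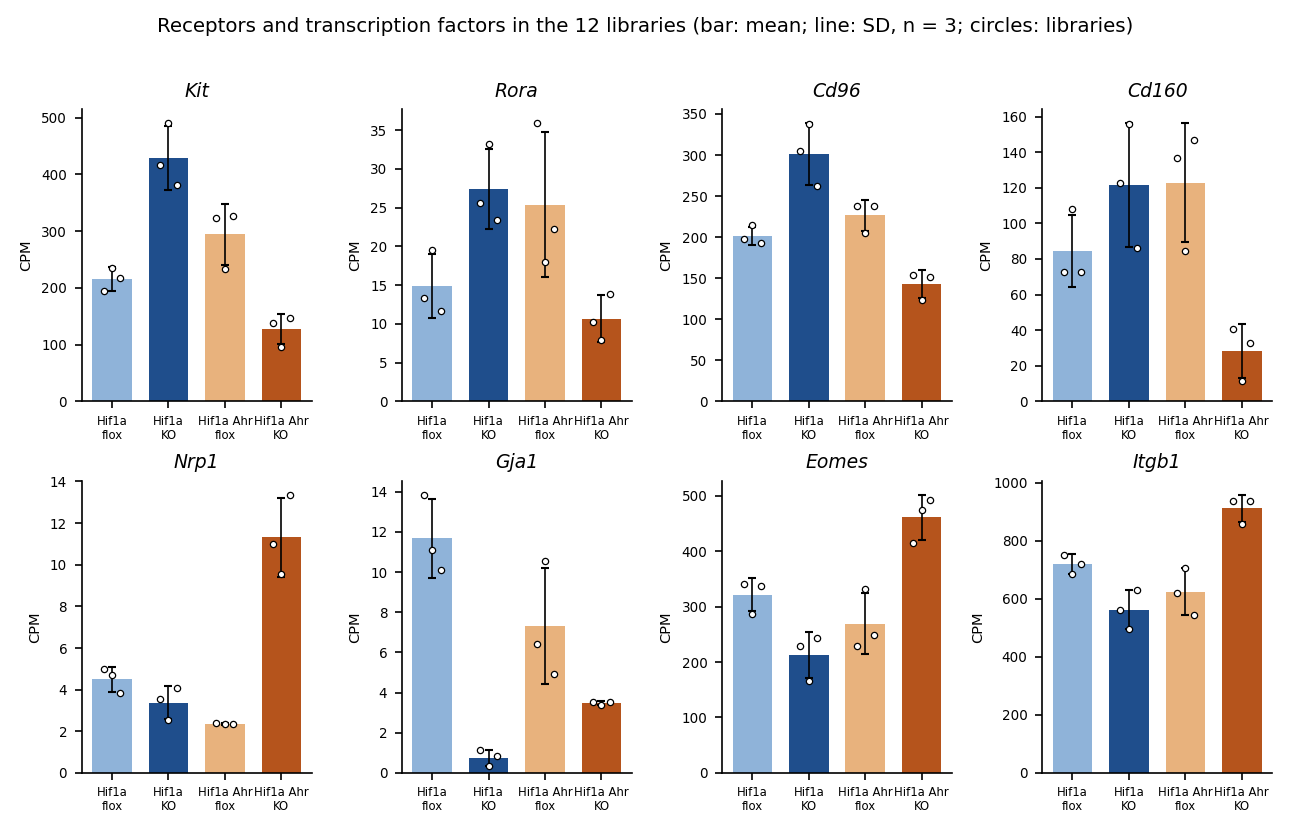
CPM (TMM-scaled, linear axis from 0) of 8 genes in the 4 groups, with bars for means, lines for SD (n = 3) and circles for libraries. By their means Kit, Rora and Cd96 are highest in Hif1a KO and lowest in Hif1a Ahr KO cells, Eomes and Itgb1 the reverse, Cd160 and Nrp1 stand apart in Hif1a Ahr KO libraries only, and Gja1 falls in both lines.

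Homing receptors and integrins went up where they were called, 4 of 22 beside 4.52% of all genes, with a median of 0.18. Itgb1, the integrin beta 1 chain, stood at 752, 686 and 722 CPM in the Hif1a flox, 563, 498 and 629 in the Hif1a KO, 621, 708 and 545 in the Hif1a Ahr flox and 939, 857 and 939 in the Hif1a Ahr KO libraries, and Itgal, the alpha chain of LFA-1, moved alike. For both, all 3 Hif1a Ahr KO values lay above all 3 Hif1a KO values, and the difference of effects was 0.90 ± 0.15 (SE, adjusted p = 0.00202) and 0.91 ± 0.17 (SE, adjusted p = 0.00477). The chemokine receptor Cx3cr1 had a mean of 0.797 CPM, a difference of 1.92 ± 0.51 (SE, adjusted p = 0.0245), and was called in 14 of the 18 fits that left out 1 library (highest adjusted p = 0.0695, without Hif1a flox replicate 1). Of 17 genes that mark mature circulating NK cells 4 were higher, Cx3cr1, Eomes and Irf8 among them, with a median of 0.20. The Irf8 call (1.46 ± 0.41 SE, adjusted p = 0.0432) held in 6 of the 18 fits that left out 1 library (highest adjusted p = 0.107, without Hif1a Ahr KO replicate 2).

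Of 20 cytotoxic effectors 4 were higher and 0 lower, beside 4.52% and 5.11% of all genes, with a median of 0.42. Prf1, the pore-forming perforin, stood at 3938, 2749 and 4040 CPM in the Hif1a flox, 817, 414 and 917 in the Hif1a KO, 2242, 3816 and 2042 in the Hif1a Ahr flox and 1803, 2066 and 1724 in the Hif1a Ahr KO libraries. It fell in Hif1a KO cells without overlap (log2 change -2.32, adjusted p = 5.98e-05), its 2 groups of the Hif1a Ahr line overlapped (-0.53, adjusted p = 0.2), and the difference of effects was 1.79 ± 0.42 (SE, adjusted p = 0.0199). That call held in 14 of the 18 fits that left out 1 library (highest adjusted p = 0.0595, without Hif1a Ahr flox replicate 1). The granule-release genes Unc13d (0.44), Stx11 (0.46) and Rab27a (0.60) were called in 12, 9 and 7 of the fits. No call of this list held in all 18: none of its genes was called without Hif1a flox replicate 1, Hif1a flox replicate 3, Hif1a Ahr flox replicate 1 or Hif1a Ahr KO replicate 2, and 7 were called without Hif1a KO replicate 3. Of the 9 listed granzymes, several of them near-identical copies whose counts may be split, none was called, with the smallest adjusted p at 0.0698 for Gzme (1.47).

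Checkpoint receptors and ectonucleotidases split, with 5 of 15 higher and 3 lower. Lag3, an inhibitory receptor, was lower with Cd160 and Cd200r1. It had 49, 52.8 and 45.9 CPM in Hif1a KO and 26, 19 and 29 CPM in Hif1a Ahr KO libraries, without overlap (-1.03 ± 0.18 SE, adjusted p = 0.00325). Tnfrsf9, the co-stimulatory receptor 4-1BB, was higher: it fell by 1.27 on the log2 scale in the Hif1a line and by 0.62 in the Hif1a Ahr line (0.66 ± 0.15 SE, adjusted p = 0.0113). The higher calls of Pdcd1, Havcr2, Tigit and Icos held in 15, 3, 12 and 11 of the 18 fits, and the list had 1 higher gene in the fits without Hif1a Ahr flox replicate 1 or Hif1a KO replicate 2.

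Among 16 cytokines and chemokines Osm and Lif were higher and Areg was lower. Oncostatin M, from Osm, stood at 39.2, 31 and 42.1 CPM in the Hif1a flox, 35.9, 25.1 and 35.8 in the Hif1a KO, 43.4, 48.9 and 30.9 in the Hif1a Ahr flox and 83.6, 77.8 and 88.9 in the Hif1a Ahr KO libraries: only the Hif1a Ahr KO libraries were high (1.24 ± 0.26 SE, adjusted p = 0.0104). Lif, of the same cytokine family, rose in both lines, with 11, 13 and 11.4 CPM in Hif1a KO and 34.8, 31.6 and 38.8 CPM in Hif1a Ahr KO libraries (1.04 ± 0.24 SE, adjusted p = 0.0123). Areg, the growth factor amphiregulin, had a mean of 0.199 CPM (-2.89 ± 0.65 SE, adjusted p = 0.0113). Ifng and Tnf were not called, at 0.99 (adjusted p = 0.179) and -0.03 (adjusted p = 0.981).

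Cell cycle genes were lower wherever they were called. Of 36 tested, 18 had a lower difference of effects and 0 a higher one, and the median was -0.44, beside -0.0025 over all genes. Hif1a deletion alone raised 28 of them (median 0.45), the joint deletion raised 0 and lowered 2 (median -0.05), and Ahr deletion in its own line lowered 21 (median -0.39). Over all genes Hif1a deletion raised 17.6%, the joint deletion raised 14.8% and lowered 16.5%, and Ahr deletion lowered 4.78%. Kif23, a kinesin of cell division, stood at 68.4, 82.6 and 70.7 CPM in the Hif1a flox, 122, 135 and 128 in the Hif1a KO, 96, 73.6 and 91.3 in the Hif1a Ahr flox and 86.2, 80.8 and 74.5 in the Hif1a Ahr KO libraries. Its 3 Hif1a KO values lay above the other 9, the Hif1a Ahr flox and KO values overlapped, and the difference of effects was -0.91 ± 0.14 (SE, adjusted p = 0.00146). Top2a, the DNA topoisomerase of dividing cells, also had its 3 Hif1a KO values above the other 9. It stood at 561, 642 and 548 CPM in the Hif1a flox, 912, 1010 and 978 in the Hif1a KO, 704, 559 and 632 in the Hif1a Ahr flox and 767, 607 and 593 in the Hif1a Ahr KO libraries (-0.67 ± 0.15 SE, adjusted p = 0.0106). The cyclin Ccnb2 (-0.68 ± 0.12 SE, adjusted p = 0.0033), the spindle protein Nusap1 (-0.74 ± 0.14 SE, adjusted p = 0.00432) and the checkpoint kinase Bub1b (-0.61 ± 0.12 SE, adjusted p = 0.00741) were among the 12 that held in all 18 fits. The replication genes Mcm7, Rrm1 and Rrm2 were called in 4, 13 and 6 of them. The list's count lay between 12, without Hif1a Ahr flox replicate 1, and 26, without Hif1a Ahr flox replicate 2.

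Interferon response genes had 8 lower and 1 higher of 29, beside 5.11% and 4.52% of all genes, with a median of -0.48. Hif1a deletion alone raised 16 and lowered 1 of them, and the joint deletion raised 8 and lowered 7. Ahr deletion in its own line raised 2 and lowered 4 (median -0.05). The shares of all genes raised and lowered were 17.6% and 17.8% with Hif1a deletion and 14.8% and 16.5% with the joint deletion. With Ahr deletion they were 2.14% and 4.78%. Ifit2, an interferon-induced RNA-binding protein, had 18.9, 20.2 and 18.6 CPM in Hif1a KO and 7.92 to 12.4 CPM in the other 3 groups (-1.23 ± 0.20 SE, adjusted p = 0.00199). Irf7, which drives type I interferon genes, had -0.95 ± 0.19 (SE, adjusted p = 0.00602). Ddx58, the RNA sensor RIG-I, differed from these, with 83.2, 79.6 and 85.8 CPM in Hif1a Ahr KO and 119.9 to 139.5 CPM in the other groups (-0.59 ± 0.09 SE, adjusted p = 0.000924). Isg15, Irf1, Rsad2 and Gbp5 were lower in 6 to 14 of the 18 fits, and Gbp4 was higher in 13. The list had 4 lower genes in the fits without Hif1a KO replicate 2 or Hif1a flox replicate 1.

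The HIF program stayed low in both lines. Hif1a deletion lowered 18 of 20 glycolysis genes (median -2.10) and 29 of 31 other HIF targets (median -2.25), and the joint deletion lowered 18 (median -1.88) and 28 (median -1.83). Of all genes, 17.8% fell with Hif1a deletion and 16.5% with the joint deletion. In the difference of effects 5 glycolysis genes and 2 other targets were higher and 0 lower, with medians of 0.23 and 0.40. Over all genes 4.52% were higher and 5.11% lower, so 2 of 31 other targets is little above the share of all genes. Slc2a1, the glucose transporter GLUT1, stood at 468, 416 and 510.4 CPM in the Hif1a flox, 91, 78.7 and 86.3 in the Hif1a KO, 408, 488 and 381 in the Hif1a Ahr flox and 119.8, 121 and 119 in the Hif1a Ahr KO libraries. It fell in both lines without overlap, and its 3 Hif1a Ahr KO values lay above all 3 Hif1a KO values (0.62 ± 0.12 SE, adjusted p = 0.00662). Ndrg1, a stress-responsive HIF target, had 45.6, 38.6 and 40.5 CPM in Hif1a KO and 59, 57.9 and 74.8 CPM in Hif1a Ahr KO libraries (0.91 ± 0.20 SE, adjusted p = 0.0112). The aldolase gene Aldoa had 0.44 ± 0.11 (SE, adjusted p = 0.0167), with an adjusted p of 0.052 without Hif1a flox replicate 3. The other higher genes, Slc16a1, Aldoc and Eno2 of glycolysis and Bhlhe41 of the HIF targets, were called in 13, 6, 4 and 5 of the fits. Without Hif1a flox replicate 1, Hif1a flox replicate 3, Hif1a KO replicate 2 or Hif1a Ahr flox replicate 1 glycolysis had 2 higher genes.

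Of the 24 pathway lists, those of lipid synthesis had the highest medians. Fatty acid synthesis had 5 of 13 genes higher and 0 lower (median 0.49), and cholesterol synthesis 2 of 23 higher and 0 lower (median 0.45). The cholesterol count is little above the share of all genes called higher, 4.52%. Fasn, the fatty acid synthase, stood at 400.1, 432 and 468 CPM in the Hif1a flox, 220.0, 236 and 229.5 in the Hif1a KO, 364, 397 and 318 in the Hif1a Ahr flox and 251, 262 and 289 in the Hif1a Ahr KO libraries. It fell in both lines, and less in the Hif1a Ahr line (0.49 ± 0.11 SE, adjusted p = 0.0128). Elovl1, a fatty acid elongase, had 107, 148 and 135 CPM in Hif1a Ahr KO and 93.8, 82.2 and 96.3 CPM in Hif1a KO libraries (0.61 ± 0.13 SE, adjusted p = 0.00976). Acsl3, Acaca and Srebf1 were called in 14, 10 and 9 and Hsd17b7 in 3 of the 18 fits. The cholesterol count depended on single libraries: it was 1 in 14 of the 18 fits and 19 without Hif1a Ahr flox replicate 2. Mitochondrially encoded genes, 12 of 13 of which rose in the Hif1a Ahr line and 13 in the Hif1a line, had 0 calls in the difference of effects (median 0.27), and 34 nuclear genes of oxidative phosphorylation had 0 as well (median -0.08). Of all genes, 14.8% rose in the Hif1a Ahr line and 17.6% in the Hif1a line.

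Immediate early genes of the AP-1, Egr and Nr4a families had 6 of 20 higher and 0 lower, although their median was -0.14 (-0.30 to 0.05 in the fits that left out 1 library). Over all genes 4.52% were higher and 5.11% lower. Fosl2, an AP-1 subunit, stood at 144, 121 and 149.9 CPM in the Hif1a flox, 78.5, 65.9 and 88.8 in the Hif1a KO, 113, 147 and 100.5 in the Hif1a Ahr flox and 127, 182 and 158 in the Hif1a Ahr KO libraries (1.21 ± 0.22 SE, adjusted p = 0.00558). Its 3 Hif1a KO values were the lowest, and the Hif1a Ahr flox and KO values overlapped. Ier3 (0.85 ± 0.17 SE, adjusted p = 0.00674) and the orphan receptor Nr4a3 (0.69 ± 0.15 SE, adjusted p = 0.00913) had the same direction, and Fosl1, Jund and Dusp2 were called in 14, 12 and 4 of the 18 fits. In the antioxidant list of NRF2 targets 3 of 16 were lower and 1 higher. Besides Nqo1, the peroxiredoxin Prdx1 was lower (-0.47 ± 0.10 SE, adjusted p = 0.011). Nfe2l2, the NRF2 gene itself, was lower in 13 of the 18 fits (-0.66), and G6pdx, the first enzyme of the pentose phosphate pathway, was higher in 14 (0.53). Of 18 genes of the IL-2 and STAT5 response 2 were higher, Osm and the receptor chain Il2rb (0.57 ± 0.14 SE, adjusted p = 0.0191), the latter in 14 of the 18 fits that left out 1 library (highest adjusted p = 0.0584, without Hif1a KO replicate 2). TGF-beta signalling had 2 of 15 higher and 1 lower, ribosome biogenesis 3 of 20 higher, the ATF4 response 1 of 22 higher, and the partners and regulators of HIF and AhR 2 of 14 lower, beside 4.52% of all genes higher and 5.11% lower. The latter were Arnt and Arntl, and Arntl (-0.53) was called in 13 of the 18 fits that left out 1 library (highest adjusted p = 0.0763, without Hif1a KO replicate 2).

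**Figure D4:**
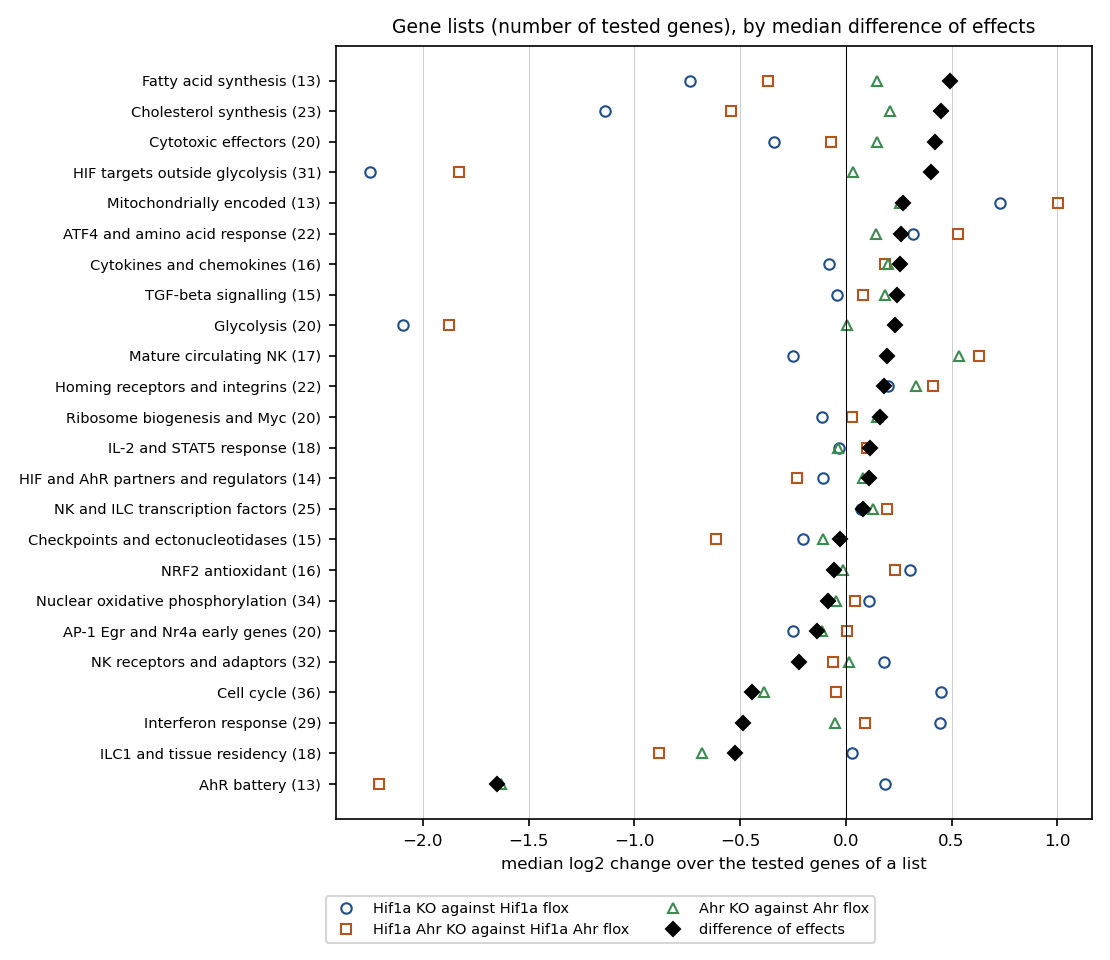
Median log2 change over the tested genes of 24 gene lists (rows, with the number of tested genes) in 3 deletions and in the difference of effects (black diamonds), sorted by the latter. The AhR battery is lowest at -1.65, followed by ILC1 and tissue residency, interferon response and cell cycle, and fatty acid synthesis is highest at 0.49. For the AhR battery and cell cycle the Ahr KO medians, -1.63 and -0.39, lie close to the diamonds. They lie further off for interferon response (-0.05 beside -0.48), HIF targets outside glycolysis (0.04 beside 0.40) and fatty acid synthesis (0.15 beside 0.49). The test of the difference of effects against the Ahr KO effect called 0 genes in each of these 3 lists.

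The Ahr line gave a comparison with other libraries. Both sets of calls came from 1 model that shares its estimate of the spread over all 18 libraries, so they are not fully separate. Ahr KO cells had 359 genes higher (2.14%) and 800 lower (4.78%) than Ahr flox cells. Of these, 48 higher and 159 lower genes changed at least 2-fold and averaged 1 CPM or more. In the difference of effects 34 of the 48 (70.8%) were called higher and 105 of the 159 (66%) lower, beside 4.52% and 5.11% of all genes, and 0 were called in the opposite direction. The other 14 higher genes had the same sign without a call, as did 49 of the lower ones, and 5 had the opposite sign. The median of the 48 was 1.18 in the Ahr line and 1.60 in the difference of effects, and that of the 159 was -1.38 and -1.32. The size of this set, 207 genes with 139 called the same way, depended on single libraries of the Ahr line. It was 133 (95 called the same way) without Ahr flox replicate 1 and 257 (173) without Ahr flox replicate 2.

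Read from the other end, 215 of the 757 genes with a higher difference of effects (28.4%) were called higher in the Ahr line, and 462 of the 856 with a lower one (54%) were called lower, with 0 in the opposite direction. Of all genes, 2.14% were called higher and 4.78% lower in the Ahr line. The sign in the Ahr line was the same for 735 and 832 of the called genes. The share of all genes with the same sign was not counted, so these counts have no base to be read against. Over the 11986 genes that averaged 1 CPM or more, the difference of effects and the Ahr KO effect had a Pearson correlation of 0.747 and a Spearman correlation of 0.712. These are across genes, which are not independent replicates, and the 3 lines shared the Cre driver and the culture conditions.

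Some levels in the Cre-bearing cells of the Ahr line and the Hif1a Ahr line lay far apart. Gja1 reached 36.8, 33 and 35.4 CPM in Ahr KO and 3.52, 3.37 and 3.52 CPM in Hif1a Ahr KO cells, and Prf1 4547, 5662 and 4424 CPM and 1803, 2066 and 1724 CPM. Nrp1 had 12.3, 11.2 and 11.6 CPM in Ahr KO cells, and the 3 Hif1a Ahr KO values overlapped these. The departure from the Ahr KO effect was not called for Gja1 or Prf1 (adjusted p = 0.924 and 0.846). Fcgr3 changed by -0.10 (adjusted p = 0.581) and Osm by 0.22 (adjusted p = 0.569) in the Ahr line, but the test of the departure from the Ahr KO effect did not call either gene (adjusted p = 0.537 and 0.654).

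**Figure D5:**
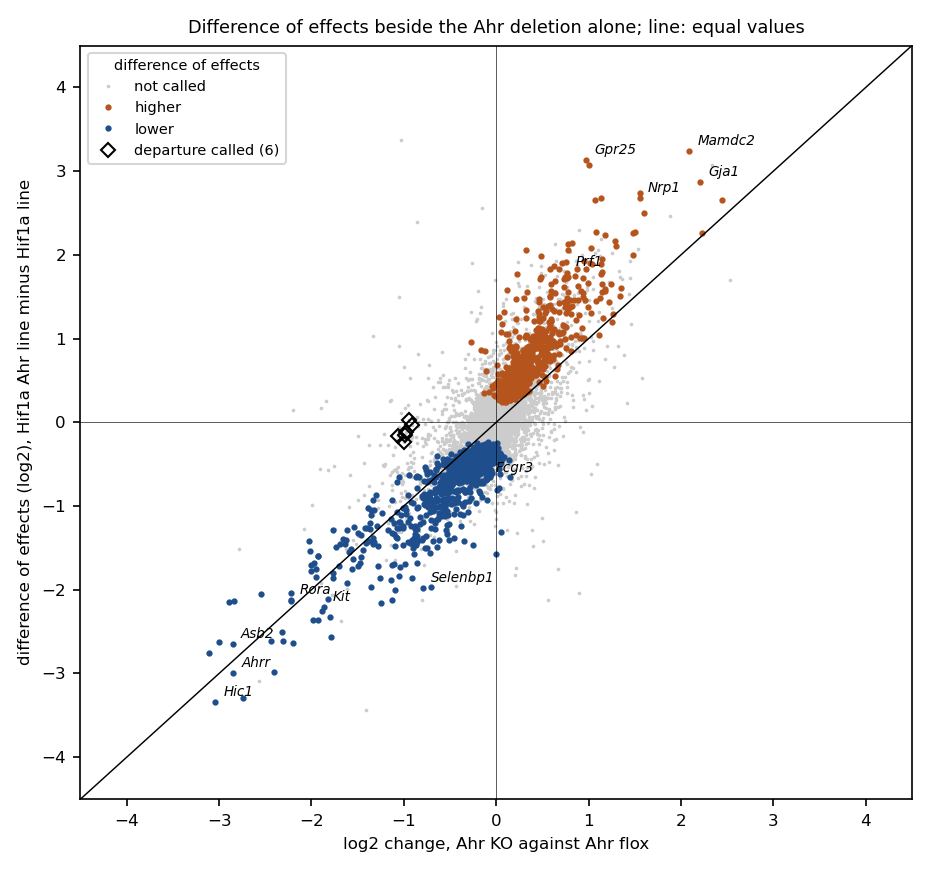
Difference of effects (vertical, log2) over the log2 change in Ahr KO against Ahr flox (horizontal) for 11986 genes that averaged 1 CPM or more, with the line of equal values. Genes with a higher (orange) or lower (blue) difference of effects lie mostly in the quadrants of equal sign, the 6 genes that departed from the Ahr KO effect (diamonds) lie near -1 on the horizontal and near 0 on the vertical axis, and 2 genes fall outside the axes.

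That departure, the difference of effects minus the Ahr KO effect, was called for 6 genes (0.0358% of those tested), while 998 genes had an unadjusted p under 0.05. The 6 were Bnip2, Usp3, Ppib, Snx1, Rab8b and Tpm1, all with a departure above 0. They share a stretch of mouse chromosome 9 that runs from Ppib to Bnip2 in the neighbour order of RefSeq. Ppib, a folding enzyme of the secretory pathway, had 289, 280.3 and 295 CPM in Hif1a flox and 135, 131 and 135 CPM in Hif1a KO libraries, 259, 283 and 301 and 145, 127 and 128 CPM in the Hif1a Ahr line, and 257, 269 and 278 and 138, 141 and 139 CPM in the Ahr line. Its level was lower by about the same factor in each Cre-bearing group. The difference of effects was therefore 0.03 (adjusted p = 0.87), and the departure, in which the fall of the Ahr line is subtracted once more, was 0.97 ± 0.11 (SE, adjusted p = 0.000362).

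The ends of this stretch were set by the 6 genes called for the departure, so their falls are not separate from that choice. Of its 19 genes that averaged 1 CPM or more, these 6 included, 15 fell in all 3 lines. Over all genes 17.8% were lower in the Hif1a line, 4.78% in the Ahr line and 16.5% in the Hif1a Ahr line. The share of all genes lower in all 3 was not counted. Medians over the 19 genes were -0.92 in the Hif1a line, -0.98 in the Ahr line and -1.11 in the Hif1a Ahr line. The median difference of effects was -0.19, with 2 genes lower, Dapk2 and Rora, and 0 higher. Dapk2, a death-associated kinase, fell in all 3 lines and had a difference of -1.05 (adjusted p = 0.00212). It was named after its values were seen, and its call was not followed through the fits that left out 1 library. Rora was the 1 gene of the stretch that rose in the Hif1a line. Ncr1, the gene that drives Cre, rose in all 3 lines (log2 change 0.92, 0.97 and 1.06), with a difference of effects of 0.15 ± 0.15 (SE, adjusted p = 0.586). Why the stretch moved was not tested.

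Markers of other cell types were read beside these results. Summed T cell markers (14 genes, mostly Trbc1 and Thy1, which NK cells also express) were 912 to 942 CPM in Hif1a KO and 1050 to 1160 CPM in Hif1a Ahr KO libraries, with 1 of 14 called, Trbc2 at 0.35, in 6 of the 18 fits that left out 1 library (highest adjusted p = 0.0907, without Hif1a KO replicate 3). Mast cell and basophil markers summed to 9.87 to 35.6 CPM and 38.5 to 71.2 CPM in these groups, nearly all of it the granule protease Mcpt8, while Fcer1a, Ms4a2 and Mcpt4 were at 0 to 0.018 CPM in both. Dendritic cell markers, mostly Itgax, were 345 to 435 CPM and 281 to 338 CPM, and macrophage markers, mostly Cd68, 55.2 to 58 CPM and 38.6 to 48.4 CPM. Of the B cell markers only Ighm passed 3 CPM, and Pax5 and Ms4a1 were at or near 0. Neutrophil markers were at 0.0907 to 0.427 CPM in both groups. Il17a was at 0 in every library. By calls in the difference of effects, B cell markers had 1 of 4 tested genes higher and 2 lower, ILC2 and ILC3 markers 1 of 5 higher and 2 lower (Il23r, with a mean of 0.223 CPM, had -4.32 and was called in 5 of the 18 fits that left out 1 library (highest adjusted p = 0.169, without Hif1a Ahr flox replicate 3)), macrophage markers 1 of 4 higher and NK identity 3 of 12 higher. Plasma cell, dendritic cell, neutrophil, mast cell, platelet and stromal markers had 0, and no erythroid marker was tested. Over all genes 4.52% were higher and 5.11% lower. What these markers contributed to the difference of effects was not tested.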

How the data were processed

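RNA of 18 libraries, 3 from each of 6 groups, was sequenced as strand-specific mRNA libraries on DNBSEQ. The authors deposited estimated counts per gene and a table of log2 CPM. The submitters' processing notes name Trim Galore 0.6.4, kallisto 0.4.6, edgeR 3.17 and GRCm39. The deposited log2 values were recovered from the deposited counts with edgeR's cpm function and a prior count of 2 (largest difference 0). They were used only in a limma-trend alternative.

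Counts without a gene symbol made up 0.28% to 0.36% of each library, and 52029 of 56953 identifiers had a symbol. The difference of effects and its parts were contrasts of 1 model over all 6 groups, fitted to the unrounded counts with edgeR 4.0.16 in R 4.3.3 (filterByExpr, TMM, robust quasi-likelihood test, Benjamini-Hochberg adjustment). The common biological coefficient of variation was 0.117, with 12 residual degrees of freedom. The p-values in the text are from this test unless another tool is named. Single-gene CPM are TMM-scaled, and marker sums are scaled to library totals. DESeq2 1.42.0 used rounded counts, and limma was 3.58.1.

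The genes named were the 12 largest rises and 12 largest falls among called genes that averaged 1 CPM or more and whose changes did not overlap between lines, up to 4 called members of each of 24 pathway lists by adjusted p, and checks. Of 560 genes in these and 12 marker lists, 559 were matched. Comparison, lists and rule were chosen with earlier results of these data known. Other members of lists are given with their values. Promoters came from RefSeq on GRCm38.p6 and were matched by symbol, and their coordinates were not mixed with GRCm39.

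Results for some genes of these lists are not reported here.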

Additional observations from a re-analysis of the deposited data

Results flagged for a closer look

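For 6 genes the difference of effects departed from the effect of Ahr deletion in its own line by a test of that departure (edgeR's quasi-likelihood test, Benjamini-Hochberg adjustment). The log2 departure was 0.856 for Bnip2, 0.883 for Usp3, 0.973 for Ppib, 0.837 for Snx1, 0.895 for Rab8b and 0.762 for Tpm1, with adjusted p between 0.000362 and 0.0475. Each of them fell in all 3 lines, and with all libraries and edgeR without a replicate block the difference of effects itself was called for none. It was called for Tpm1 with the replicate block (-0.24, adjusted p = 0.0379) and for Snx1 without Hif1a Ahr KO replicate 1 (-0.25, adjusted p = 0.0317). A change common to the 3 Cre-bearing groups cancels in the difference of effects and enters the departure with its sign turned, and its source was not tested.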

How the results depend on the processing

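No gene named with a call changed sign under the alternatives run, but medians near 0 did when 1 library was left out: cytokines (-0.07 to 0.64), TGF-beta (-0.02 to 0.32), early genes (-0.30 to 0.05), IL-2 and STAT5 (-0.01 to 0.14), checkpoints (-0.16 to 0.09) and mitochondrially encoded genes (-0.000124 to 0.357). Lower calls outnumbered higher ones except with the replicate block, or without Hif1a KO replicate 3 (854 higher, 826 lower) or Hif1a Ahr flox replicate 3 (697 and 683). DESeq2 called 24 genes between the flox groups and 24 for the departure from the Ahr KO effect, where limma-trend called 11. With the 12 libraries alone, 414 genes were higher, 564 lower and 2 called between the flox groups. Leaving out 1 library gave 341 to 1148 higher genes (lowest without Hif1a KO replicate 2, highest without Hif1a Ahr flox replicate 2) and 413 to 1286 lower genes (without Hif1a KO replicate 2 and without Hif1a Ahr KO replicate 1). It gave 1454 to 3671 genes between the Cre-bearing groups (the same pair of libraries), 3 to 10 between the flox groups (highest without Hif1a flox replicate 1) and 5 to 14 for the departure (highest without Hif1a Ahr KO replicate 1). Higher genes also fell in number by over 1.5 times without Hif1a Ahr flox replicate 1 (368), Hif1a Ahr KO replicate 2 (378), Hif1a flox replicate 3 (392), Hif1a flox replicate 1 (405), Hif1a Ahr KO replicate 3 (465) or Hif1a KO replicate 1 (496), and lower genes without the first 4 of these (433, 437, 481 and 452). With the replicate number as a block within each line, 1606 genes were higher, 1553 lower and 35 departed, and 212 genes of the Ahr line were called the same way. That block also called the difference of effects of Ahr (-0.76, adjusted p = 0.000517), Pctp (0.61, adjusted p = 0.00688) and Tpm1 (-0.24, adjusted p = 0.0379). Same-numbered libraries of a line had correlated deviations, down to 0.067 in the Hif1a Ahr line, and 6 of 6, 5 of 6 and 6 of 6 libraries of the Hif1a, Hif1a Ahr and Ahr lines correlated best with their own number, as a hint from the data and not the design. Hif1a Ahr KO against Hif1a KO, and the flox groups against each other, have no value with this block, which lies within lines. Cyp1a1, Cyp1b1 and other genes under 1 CPM are limited by depth.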
